A study of Mus musculus with 6 samples.

Results

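The genes described here are 37 interferon-stimulated genes, measured in muscle of mice labelled as having or lacking Igf2 in muscle fibres. They were taken by name from the 54532 rows of 1 deposited gene table, where each of the 37 names occurred once. Of the 37, 30 are type I induced genes, 6 encode the interferon gamma GTPases (Gbp2, Gbp3, Gbp7, Igtp, Irgm1 and Irgm2), and Irf1 was kept apart as a transcription factor that responds strongly to interferon gamma. All 37 passed the filter on low counts and entered the fit over 14867 genes.

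The series holds 6 libraries of total RNA from muscle of C57BL/6 mice. All 6 animals carried loxP sites around exon 2 of both Igf2 alleles (Igf2f/f). The 3 Igf2 cKO libraries came from Mck-Cre+; Igf2f/f animals, in which the muscle creatine kinase promoter drives Cre recombinase in striated muscle fibres, and the 3 control libraries came from Mck-Cre-; Igf2f/f littermates. A piece of muscle also holds leukocytes, endothelium and fibroblasts, in which this driver is not known to act. Which muscle was taken, at what age and from which sex is not stated in the labels, and p-values measure the spread between these 6 samples. Total counts ran from 16184371 to 17905203 a library. Markers of muscle fibres (Acta1, Ckm, Myh4, Tnnt3, Mylpf and Mb) summed to between 79759 and 124556 CPM (counts scaled to a common library size), so the tissue label held. The count of Igf2, summed over the whole gene, was 3.25, 2.41 and 2.55 CPM in controls and 1.84, 2.29 and 2.48 CPM in Igf2 cKO libraries (adjusted p = 0.751). These values overlapped, so the groups rest on the labels.

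Interferons are secreted signals of viral defence. Type I interferons bind the receptor chains IFNAR1 and IFNAR2, and a complex that holds STAT2 and IRF9 then binds the interferon-stimulated response element (ISRE) in promoters. Interferon gamma binds IFNGR1 and IFNGR2 and acts on promoters through the gamma-activated site (GAS). Many target genes hold a low basal level in uninfected tissue, muscle included.

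Promoters of 28 of the 37 members were found in the RefSeq table for GRCm38.p6, each window running from 250 bases before to 50 bases after the start that RefSeq annotates. That start can differ from the one in the deposited table, whose Irgm2 gene begins at 58199618, upstream of the RefSeq window. An ISRE core, searched on both strands as GAAA, any 2 bases and GAAA again, was present in 17 of these 28 genes (60.7%), against 3.99% of the 27025 genes in the table. Counted by window, the motif was in 54.5% of the members' 33 windows and in 3.44% of all 32851 windows. It was present for 6 of 6 GTPase genes and for 11 of 21 type I induced genes. A GAS core, searched as TTCNNNGAA, which reads the same on both strands, was in 27.3% of the members' windows and 8.3% of all windows. The 250 bases before the start are printed for 6 genes, 5′ to 3′ on the gene's own strand, with ISRE cores in capitals. Ifit1 was the member with the smallest p whose window holds the motif, Isg15 carries 3 overlapping copies, Irgm2 and Igtp are GTPase genes with similar promoters, Bst2 was the most abundant member, and Oasl2 had the smallest p of all and no such core in its window.
Ifit1, chr19:34640639-34640888, plus strand: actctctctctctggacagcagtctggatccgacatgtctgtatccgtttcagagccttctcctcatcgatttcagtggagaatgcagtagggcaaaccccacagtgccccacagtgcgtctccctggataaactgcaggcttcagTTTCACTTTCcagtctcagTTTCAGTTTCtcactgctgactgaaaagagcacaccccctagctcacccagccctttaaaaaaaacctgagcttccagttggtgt
Isg15, chr4:156200819-156201068, minus strand: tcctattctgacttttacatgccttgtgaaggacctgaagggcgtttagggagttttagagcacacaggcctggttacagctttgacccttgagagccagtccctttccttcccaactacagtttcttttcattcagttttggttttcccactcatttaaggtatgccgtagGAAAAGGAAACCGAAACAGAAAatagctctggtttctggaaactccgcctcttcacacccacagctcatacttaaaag
Irgm2, chr11:58214727-58214976, plus strand: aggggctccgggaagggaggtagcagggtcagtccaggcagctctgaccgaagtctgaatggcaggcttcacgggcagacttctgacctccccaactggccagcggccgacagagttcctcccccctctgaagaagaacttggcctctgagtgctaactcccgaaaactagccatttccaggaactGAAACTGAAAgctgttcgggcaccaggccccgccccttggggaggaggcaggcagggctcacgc
Igtp, chr11:58199306-58199555, plus strand: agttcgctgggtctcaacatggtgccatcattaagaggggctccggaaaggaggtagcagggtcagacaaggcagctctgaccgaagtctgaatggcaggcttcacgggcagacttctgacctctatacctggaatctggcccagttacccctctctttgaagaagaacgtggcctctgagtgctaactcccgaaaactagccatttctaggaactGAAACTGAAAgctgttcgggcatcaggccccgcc
Bst2, chr8:71537473-71537722, minus strand: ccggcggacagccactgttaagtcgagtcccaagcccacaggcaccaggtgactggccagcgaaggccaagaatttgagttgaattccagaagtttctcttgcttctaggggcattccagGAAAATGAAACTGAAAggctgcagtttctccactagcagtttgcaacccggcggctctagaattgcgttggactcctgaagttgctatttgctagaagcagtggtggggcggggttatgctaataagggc
Oasl2, chr5:114896684-114896933, plus strand: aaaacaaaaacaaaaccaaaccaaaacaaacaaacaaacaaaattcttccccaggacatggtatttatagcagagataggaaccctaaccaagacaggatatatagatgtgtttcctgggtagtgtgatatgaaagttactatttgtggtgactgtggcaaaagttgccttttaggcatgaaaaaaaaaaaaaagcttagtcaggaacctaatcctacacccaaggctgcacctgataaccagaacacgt
In Ifit1 the 2 cores lay 76 to 85 and 95 to 104 bases before the start, both on the opposite strand. In Isg15 the 3 cores overlapped between 57 and 78 bases before the start, and in Bst2 a pair overlapped between 115 and 130 bases before it, the outer one sharing bases with a GAS core at 128 to 136. A GAS core lay 67 to 75 bases before the start of Irgm2 and 37 to 45 before that of Igtp, clear of the ISRE core at 55 to 64 and 25 to 34. The stretches printed for Irgm2 and Igtp matched at 90.2% of 215 aligned bases and shared an unbroken run of 55 bases. The 17 genes with an ISRE core had a median log2 fold change of -0.28 and the 11 without one of -0.28. A motif match is a description of letters, and Ifit1, Isg15, Irgm2, Igtp and Bst2, which all hold the core, did not share 1 sign in the values that follow.

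Interferon-stimulated genes tended to stand at slightly lower levels in Igf2 cKO muscle, and none of them passed the test. The log2 fold change (Igf2 cKO over control) was below 0 for 33 of 37 members, against 49.2% of all genes tested, and its median was -0.30, against 0.00 for all genes. By edgeR's quasi-likelihood test 0 of 37 members were called at an adjusted p under 0.05, where 0.249% of all genes were called in either direction and 0.0673% lower. DESeq2 and limma-voom also called 0 members. At an unadjusted p under 0.05 there were 15 members in edgeR (40.5%), all at lower values in Igf2 cKO, against 9.93% of all genes in either direction, 4.82% lower and 5.11% higher. DESeq2 put 12 and limma-voom 13 members under the same unadjusted p. In 14 members (37.8%) all 3 control libraries lay above all 3 Igf2 cKO libraries, against 7.67% of all genes, and the opposite arrangement occurred in 0 members, against 7.83% of all genes. Members share their regulators, so they are not independent measurements. In bulk muscle, fewer cells of an expressing type and less RNA per cell cannot be told apart.

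**Figure D1:**
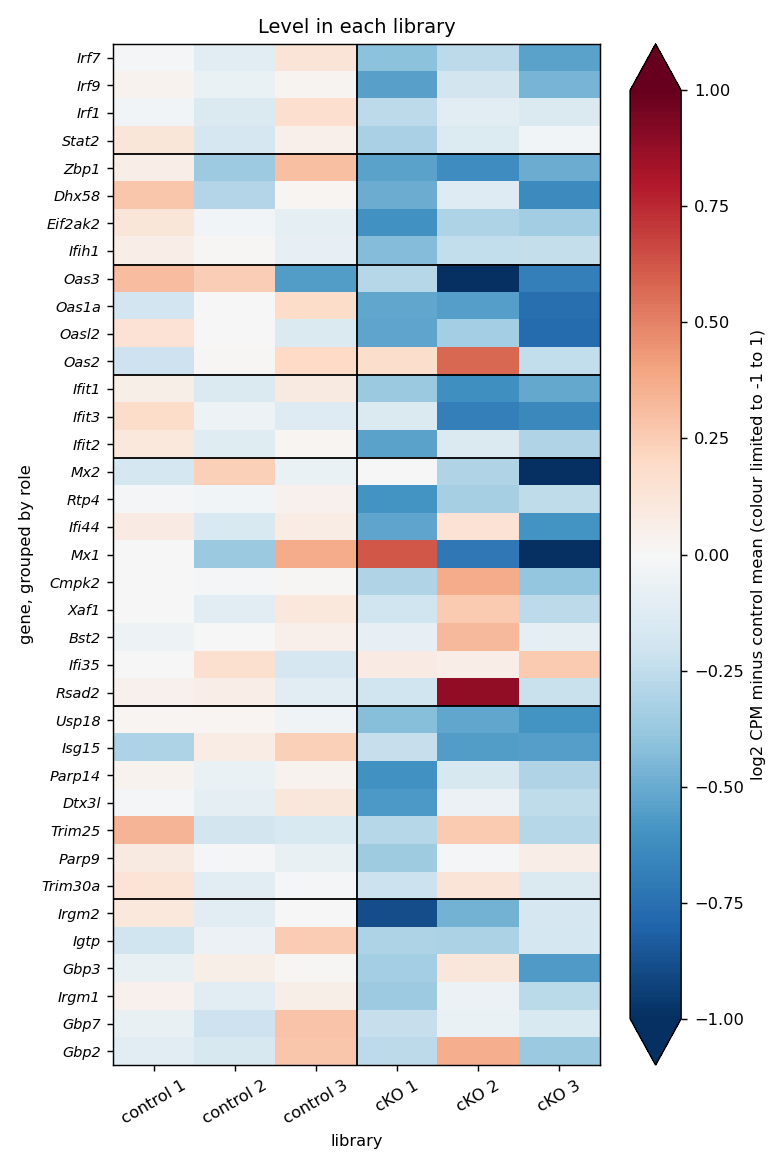
Level of each of the 37 genes (rows, grouped by role) in each of the 6 libraries (columns), as log2 CPM minus the mean of the control libraries, with the colour scale limited to -1 to 1. Most rows are blue in Igf2 cKO replicates 1 and 3, while 8 genes in Igf2 cKO replicate 2 stand above every control library, Rsad2 most of all.

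The type I induced genes had a median log2 fold change of -0.34 over 30 members, 26 of them below 0 and 14 with an unadjusted p under 0.05. For the 6 interferon gamma GTPases the median was -0.23, with 6 below 0 and 1 under that unadjusted p. Irf1 stood at -0.18. The difference between the type I and GTPase groups was not tested. The type I genes summed to 540, 496 and 519 CPM in controls and to 404, 512 and 422 CPM in Igf2 cKO libraries. The GTPases summed to 239, 225 and 266 CPM in controls and to 176, 223 and 204 CPM in Igf2 cKO libraries. On this sum the groups overlapped for the type I genes, through Igf2 cKO replicate 2. For the GTPases all controls lay above all Igf2 cKO libraries, the closest pair being 225 and 223 CPM. The mean log2 CPM over members, which abundant genes dominate less, gave the reverse. The type I genes did not overlap, at 3.66, 3.56 and 3.63 in controls and 3.31, 3.44 and 3.19 in Igf2 cKO libraries. The GTPases overlapped, with control replicate 2 at 5.14 and Igf2 cKO replicate 2 at 5.17.

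Among the transcription factors, Irf9 and Irf7 had an unadjusted p under 0.05, and both stood lower in Igf2 cKO libraries. Irf9, the DNA-binding partner of STAT2 (chromosome 14, 55603571 to 55610030), was at 32.1, 29.9 and 31.8 CPM in control replicates 1 to 3 and at 21.5, 27.5 and 22.6 CPM in Igf2 cKO replicates 1 to 3. This gave -0.39 ± 0.11 on the log2 scale (SE; 95% interval -0.65 to -0.13; adjusted p = 0.283). Irf7, which amplifies type I interferon production, had 20.5, 19.2 and 22.7 CPM in controls and 15.6, 17.3 and 14.2 CPM in Igf2 cKO libraries (-0.40 ± 0.12, adjusted p = 0.284). The groups did not overlap for either gene, yet both failed the correction over all genes. Of all genes, 4.82% were lower at an unadjusted p under 0.05 and 7.67% had all controls above all Igf2 cKO libraries. Irf1, the most abundant of the 4 factors per length at a mean of 6.20 FPKM, had 25.7, 23.8 and 29.5 CPM in controls and 21.8, 24.3 and 23.8 CPM in Igf2 cKO libraries (adjusted p = 0.655), with overlapping groups. Stat2 also overlapped (-0.16 ± 0.12, adjusted p = 0.711).

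The 4 members that sense nucleic acids in the cytosol had values below 0. Eif2ak2, which encodes the double-stranded RNA-activated kinase PKR, was at 15.7, 14.2 and 13.5 CPM in control replicates 1 to 3 and at 9.43, 11.6 and 11.3 CPM in Igf2 cKO replicates 1 to 3 (-0.42 ± 0.13, adjusted p = 0.331). Ifih1, the RNA sensor MDA5, had 22.8, 21.9 and 20.5 CPM in controls against 16.0, 18.3 and 18.4 CPM (-0.31 ± 0.10, adjusted p = 0.369). Zbp1, a sensor of Z-form nucleic acids that can start necroptosis, was scarce, with 3.36, 2.46 and 3.99 CPM in controls against 2.18, 2.04 and 2.25 CPM (-0.60 ± 0.26, adjusted p = 0.492). In these 3 genes every control library lay above every Igf2 cKO library, by small margins. Over all genes, 7.67% had that arrangement. Dhx58, which encodes LGP2, a regulator of the RNA sensors, had overlapping groups at between 40 and 84 counts a library (-0.44 ± 0.25, adjusted p = 0.623).

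The oligoadenylate synthetase family makes the 2′-5′ oligoadenylates that activate RNase L, although Oasl2 belongs to its OAS-like branch. Oasl2 (ENSMUSG00000029561, chromosome 5, 114896936 to 114912234) had the smallest p of the 37 genes. Its level was 22.6, 20.4 and 18.4 CPM in control replicates 1 to 3 and 14.1, 16.1 and 11.9 CPM in Igf2 cKO replicates 1 to 3. This gave -0.55 ± 0.14 on the log2 scale (95% interval -0.86 to -0.23; adjusted p = 0.222). Oas1a had 4.87, 5.59 and 6.34 CPM in controls against 3.85, 3.77 and 3.25 CPM (-0.62 ± 0.19, adjusted p = 0.32). Both genes separated the groups, but neither passed the correction. All controls lay above all Igf2 cKO libraries in 7.67% of all genes. Oas3 had the widest fold change of all members on the fewest counts, between 5 and 26 a library, at 1.41, 1.34 and 0.719 CPM in controls and 0.893, 0.309 and 0.650 CPM in Igf2 cKO libraries (-0.90 ± 0.46, adjusted p = 0.58). Oas2 had a value above 0, at 0.20 ± 0.22 (adjusted p = 0.833), and its value was -0.024 without Igf2 cKO replicate 2, where it stood at 14.7 CPM against at most 11.3 CPM in controls. Oas1a has close relatives in the same cluster, and reads shared with them could have been split or dropped.

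All 3 IFIT genes, a cluster on chromosome 19 that encodes binders of viral RNA, had an unadjusted p under 0.05 and groups that did not overlap. The shares of all genes lower in Igf2 cKO on these measures were 4.82% and 7.67%. Ifit1 (chromosome 19, 34640871 to 34650009) was at 13.0, 11.3 and 13.3 CPM in control replicates 1 to 3 and at 9.65, 8.17 and 8.75 CPM in Igf2 cKO replicates 1 to 3 (-0.50 ± 0.14, 95% interval -0.81 to -0.19, adjusted p = 0.263). Ifit3 had 18.0, 15.3 and 14.5 CPM in controls against 14.3, 9.84 and 10.1 CPM (-0.48 ± 0.17, adjusted p = 0.401). Ifit2 had 22.6, 19.2 and 21.3 CPM in controls against 14.4, 19.0 and 17.0 CPM (-0.32 ± 0.13, adjusted p = 0.45). The lowest control and the highest Igf2 cKO library differed by little for Ifit3 and Ifit2. Ifit3b, the near-identical neighbour of Ifit3 and not among the 37 genes, stood at -0.27 ± 0.22 (adjusted p = 0.761), and reads from this pair cannot be assigned with certainty.

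**Figure D2:**
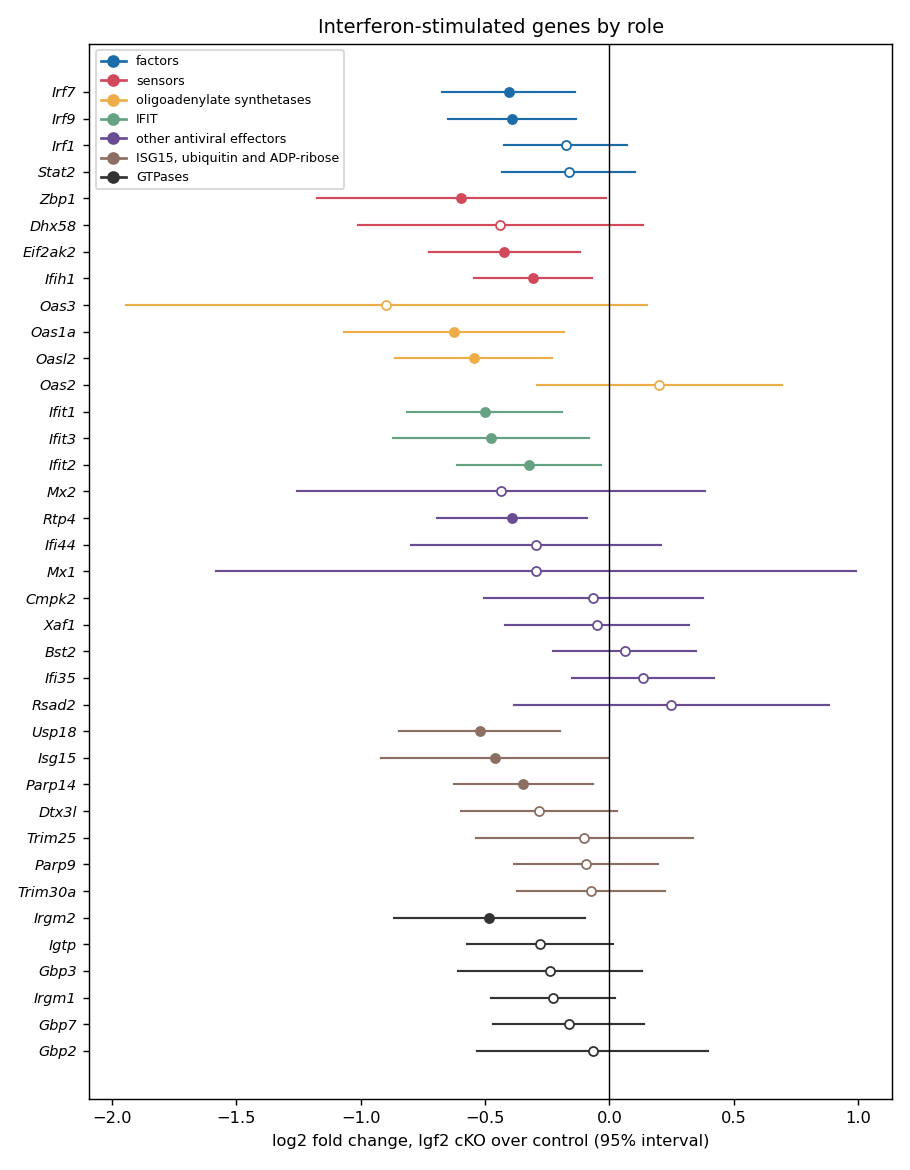
Log2 fold change of Igf2 cKO over control for the 37 genes, as points with 95% intervals from the edgeR fit on 3 libraries a group, coloured by role. Filled points have an unadjusted p under 0.05, and all 15 of them lie below 0; open points do not, and 0 of 37 genes had an adjusted p under 0.05.

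Of the 7 genes of ISG15 conjugation, ubiquitin and ADP-ribose, all had values below 0, 3 had an unadjusted p under 0.05 and 2 had groups that did not overlap. Over all genes, 4.82% were lower at that p and 7.67% had every control above every Igf2 cKO library. Usp18, which removes ISG15 from proteins and also blocks the type I receptor, was tight within each group, at 8.77, 8.78 and 8.44 CPM in control replicates 1 to 3 and 6.41, 6.00 and 5.68 CPM in Igf2 cKO replicates 1 to 3. Its log2 fold change was -0.52 ± 0.14 (95% interval -0.85 to -0.20, adjusted p = 0.263). Isg15, the ubiquitin-like modifier itself, had 5.90, 7.72 and 8.70 CPM in controls against 6.25, 4.95 and 4.97 CPM (-0.46 ± 0.20, adjusted p = 0.498). For Isg15 the groups overlapped, since control replicate 1 lay below Igf2 cKO replicate 1. Parp14, an ADP-ribosyltransferase, had 58.2, 54.2 and 58.1 CPM in controls against 37.2, 50.9 and 46.0 CPM (-0.35 ± 0.12, adjusted p = 0.39). The other genes of this group were the ADP-ribosylation pair Parp9 and Dtx3l and the ubiquitin ligases Trim25 and Trim30a. They ranged from -0.28 (Dtx3l) to -0.07 (Trim30a), with overlapping groups. The ISG15 conjugation enzyme genes outside the 37, Uba7 (-0.13), Ube2l6 (-0.15) and Herc6 (-0.07), also had overlapping groups. Parp9 and Dtx3l overlap by 682 bases on opposite strands, and without a stated strand setting reads from that stretch cannot be told apart.

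The remaining antiviral effectors were the most mixed role, with 6 of 9 below 0 and a median of -0.06. Rtp4, a chaperone-like transmembrane protein, was the 1 gene of the 9 under an unadjusted p of 0.05, against 4.82% of all genes lower. It had 13.2, 13.1 and 13.8 CPM in control replicates 1 to 3 and 8.81, 10.6 and 11.2 CPM in Igf2 cKO replicates 1 to 3 (-0.39 ± 0.13, adjusted p = 0.371). Bst2, tetherin, which holds budding virions on the cell surface, was the most abundant of the 37 genes per length at a mean of 46.4 FPKM. It had 39.7, 41.4 and 42.6 CPM in controls against 39.0, 51.6 and 38.5 CPM (0.06 ± 0.13, 95% interval -0.23 to 0.35, adjusted p = 0.924). Bst2 values of 2 Igf2 cKO libraries thus lay just under the controls and the third well above them.

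Rsad2 and its neighbour Cmpk2 repeated that arrangement and were chosen for description after their values were seen. Rsad2 encodes viperin and Cmpk2 a mitochondrial nucleotide kinase that acts beside it. They lie on opposite strands of chromosome 12, at 26442746 to 26456452 and 26469204 to 26479837. Rsad2 was at 17.6, 18.0 and 15.9 CPM in control replicates 1 to 3 and at 14.9, 31.7 and 14.7 CPM in Igf2 cKO replicates 1 to 3. Cmpk2 was at 17.8, 17.6 and 17.9 CPM in controls and at 14.4, 23.0 and 13.5 CPM in Igf2 cKO libraries. In both genes Igf2 cKO replicate 2 was the highest of the 6 libraries and the other Igf2 cKO libraries were the lowest. The log2 fold change was 0.25 ± 0.28 for Rsad2 (adjusted p = 0.838) and -0.06 ± 0.19 for Cmpk2 (adjusted p = 0.949). Without Igf2 cKO replicate 2 these became -0.21 and -0.34.

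**Figure D3:**
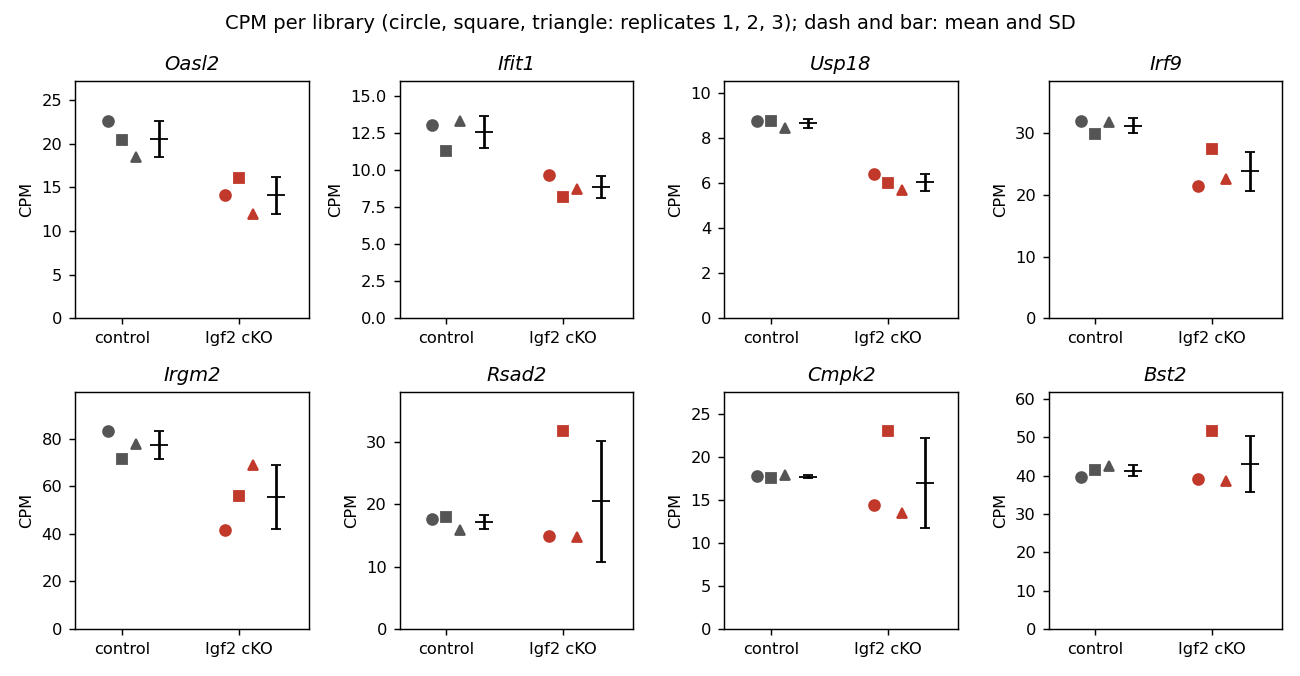
CPM of 8 of the genes in each library, with the replicate number shown by the symbol and the mean and SD of each group (n = 3) beside the points; each vertical axis starts at 0. Oasl2, Ifit1, Usp18, Irf9 and Irgm2 separate the groups, whereas Rsad2, Cmpk2 and Bst2 have Igf2 cKO replicate 2 above every control library.

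Mx2 and Mx1, dynamin-like GTPases, were scarce, with at most 38 counts in a library. The Mx1 allele of most inbred laboratory strains encodes no working protein, and the deposited table lists Mx2 as a polymorphic pseudogene. Mx2 had 1.57, 2.13 and 1.70 CPM in controls against 1.78, 1.42 and 0.769 CPM in Igf2 cKO libraries (-0.44 ± 0.36, adjusted p = 0.759). Mx1 had 1.19, 0.895 and 1.57 CPM in controls against 1.90, 0.681 and 0.355 CPM, so its Igf2 cKO libraries lay on both sides of the controls, and the 95% interval ran from -1.58 to 0.99. Ifi44, Xaf1 and Ifi35 had values of -0.30, -0.05 and 0.13, all with overlapping groups.

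The interferon gamma GTPases defend against intracellular parasites by acting on the vacuoles that hold them. Irgm2 (chromosome 11, 58199618 to 58222782) was the most abundant of the 6 per length, at a mean of 17.9 FPKM. It had 83.1, 71.4 and 77.6 CPM in control replicates 1 to 3 and 41.7, 55.8 and 68.7 CPM in Igf2 cKO replicates 1 to 3 (-0.48 ± 0.17, 95% interval -0.87 to -0.10, adjusted p = 0.383). Every control lay above every Igf2 cKO library, though Igf2 cKO replicate 3 was close to control replicate 2. Igtp, whose annotated gene lies almost wholly inside that of Irgm2 on the same strand, stood at -0.28 ± 0.13 (adjusted p = 0.528). Reads from the 7974 shared bases could have been given to either gene or to neither. Irgm1 (-0.23), Gbp3 (-0.24), Gbp7 (-0.16) and Gbp2 (-0.07) had overlapping groups and adjusted p between 0.543 and 0.951. Gbp2 was highest in Igf2 cKO replicate 2 at 38.7 CPM, against 27.8, 27.0 and 36.5 CPM in controls.

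Libraries differed in how many members they held at the extremes. Control replicates 1, 2 and 3 were the highest of the 6 libraries in 14, 2 and 11 members, and Igf2 cKO replicates 1, 2 and 3 in 1, 8 and 1. Igf2 cKO replicates 1 and 3 were each the lowest in 15 members, Igf2 cKO replicate 2 in 6 and control replicate 3 in 1. Relative to the control range, Igf2 cKO replicate 1 was below it in 31 of 37 members and above it in 1, Mx1. Replicate 3 was below it in 32 and above it in 1, Ifi35, while replicate 2 was below it in 19 and above it in 8. Those 8 were Oas2, Rsad2, Bst2, Ifi44, Xaf1, Cmpk2, Gbp2 and Gbp3. Such counts by library were not made over all genes. The median over the 37 genes came to -0.40 when Igf2 cKO replicate 2 was left out and to -0.23 when Igf2 cKO replicate 1 was. The authors' deposited table compares 1 Igf2 cKO library with the control library of the same number. The members' median log2 fold change in the authors' deposited table was -0.41, -0.09 and -0.40 for replicates 1, 2 and 3. None of the 37 had an adjusted p under 0.05 in the authors' deposited table, where the share of all genes was 0.448%, 0.346% and 0.716% in these comparisons.

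The interferons themselves were not detected. All 14 ligand genes examined, among them Ifnb1, Ifna4, Ifng and Ifnl2, had 0 counts in each library, which allows up to between 0.162 and 0.196 CPM (3 counts, counting error only). Near-identical Ifna copies may also lose shared reads. The receptor chains tested were present at levels that did not differ beyond their spread. Ifnlr1, on the same list, had between 0 and 4 counts a library and was not tested. Ifnar1 stood at -0.23 ± 0.11 (adjusted p = 0.543), Ifnar2 at -0.19 ± 0.19 (adjusted p = 0.815), Ifngr1 at 0.19 ± 0.13 (adjusted p = 0.697) and Ifngr2 at 0.10 ± 0.09 (adjusted p = 0.794). In edgeR 0 of 5 receptor genes tested were called, 0 had an unadjusted p under 0.05, and the median was 0.01. DESeq2 and limma-voom also called 0 of the receptor genes.

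Of 18 induction and signalling genes tested, 0 were called by edgeR, with 3 lower and 1 higher at an unadjusted p under 0.05 and a median of -0.12, against 4.82% and 5.11% of all genes. All controls lay above all Igf2 cKO libraries in 5 of the 18, against 7.67% of all genes. The reverse held in 2, against 7.83% of all genes. DESeq2, which called more of all genes than edgeR did, called 1, Tmem173 (adjusted p = 0.0381), and limma-voom called 0. The smallest p was that of Tmem173, which encodes the DNA-sensing adaptor STING, with 14.7, 14.2 and 12.2 CPM in controls against 9.37, 7.98 and 9.28 CPM (-0.63 ± 0.14, adjusted p = 0.163). Jak2, a kinase of the interferon gamma receptor, stood at -0.43 ± 0.14 (adjusted p = 0.332) and Tlr3, an endosomal RNA sensor, at -0.42 ± 0.14 (adjusted p = 0.372). Ticam1, an adaptor of Toll-like receptors, stood at 0.39 ± 0.16 (adjusted p = 0.478), and Mb21d1, which encodes the cytosolic DNA sensor cGAS, at 0.49 ± 0.30 (adjusted p = 0.637). In Tmem173, Jak2 and Tlr3 every control lay above every Igf2 cKO library, in Ticam1 and Mb21d1 every Igf2 cKO library lay above every control, and in edgeR all 5 failed the correction.

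Among 9 tested genes that restrain interferon signalling, Socs1, an inhibitor of JAK kinases that interferon itself induces, fell, with an adjusted p of 0.0475. It was at 27.3, 93.1 and 57.9 CPM in control replicates 1 to 3 and at 5.13, 7.49 and 1.72 CPM in Igf2 cKO replicates 1 to 3 (-3.64 ± 0.54). The Socs1 call was lost in 5 of 6 fits that left out 1 library (adjusted p from 0.0309 to 0.164), in limma-voom (adjusted p = 0.117) and with a filter at 1 CPM (adjusted p = 0.052). The log2 fold change of Socs1 in the authors' deposited table was -2.41, -3.63 and -5.07 for replicates 1, 2 and 3. Control replicate 2 held the most Socs1 and was the highest library for 2 of the 37 interferon-stimulated genes. Whether Socs1 and these genes vary together was not tested. Ptpn2, a phosphatase of JAK and STAT proteins, stood at 0.50 ± 0.14 (adjusted p = 0.282) with every Igf2 cKO library above every control. Socs3 (-3.16 ± 0.64, adjusted p = 0.144) and Irf2 (-0.26 ± 0.10, adjusted p = 0.415) had the opposite arrangement. In edgeR 1 of the 9 was called, against 0.0673% of all genes called lower. At an unadjusted p under 0.05 there were 3 lower and 1 higher, against 4.82% and 5.11% of all genes. All controls lay above all Igf2 cKO libraries in 3, against 7.67% of all genes. The reverse held in 2, Ptpn2 and Ptpn1, against 7.83% of all genes. DESeq2, which called more of all genes than edgeR did, called Socs1 (adjusted p = 0.000192) and also Socs3 (adjusted p = 0.0115), while limma-voom called 0 of the 9. Trex1, which degrades cytosolic DNA and lies inside Atrip on the same strand, was listed at 0 counts.

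Beyond the 37 genes, 64 other interferon-induced genes could be tested, of which 50 lay below 0, with a median of -0.13. By edgeR 0 were called, and 11 lower and 1 higher had an unadjusted p under 0.05, against 4.82% and 5.11% of all genes. The guanylate-binding protein genes Gbp5 (-0.40 ± 0.10, adjusted p = 0.244) and Gbp9 (-0.46 ± 0.13, adjusted p = 0.284) and the GTPase gene Ifi47 (-0.47 ± 0.13, adjusted p = 0.273) had the smallest p. Class I antigen presentation, another interferon target, had a median of -0.03 over 13 genes, with 0 called and 0 at an unadjusted p under 0.05 in edgeR. Its most abundant gene per length, B2m, stood at 0.01 ± 0.15 (adjusted p = 0.988). For both lists DESeq2 and limma-voom called 0 genes.

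Markers of other cells were compared beside these values. Erythroid genes, a measure of blood left in the tissue, summed to between 449 and 618 CPM in controls and between 313 and 358 CPM in Igf2 cKO libraries. All 5 tested markers were below 0 and under an unadjusted p of 0.05, against 4.82% of all genes. By edgeR and limma-voom 0 of the 5 were called. DESeq2, which called more of all genes than edgeR did, called 3, the haemoglobin genes Hba-a1, Hbb-bs and Hbb-bt. T and NK cell markers summed to between 2.91 and 3.52 CPM in controls and between 1.24 and 2.60 CPM in Igf2 cKO libraries, with 2 of 10 markers abundant enough to test. These were Trac (-1.69 ± 0.70, adjusted p = 0.477) and Cd4 (1.1 ± 0.68, adjusted p = 0.655), which differed in sign. Ptprc, which marks all leukocytes, stood at -0.44 ± 0.18 (adjusted p = 0.477) with overlapping groups. Macrophage markers overlapped, at between 353 and 712 CPM in controls and between 421 and 596 CPM in Igf2 cKO libraries, and 9 of 10 lay below 0. Plasmacytoid dendritic cell markers were at most 2.92 CPM in sum, neutrophil markers at most 6.21 CPM and B and plasma cell markers at most 5.09 CPM, each with overlapping groups. Endothelial markers overlapped too, at between 1069 and 1212 CPM in controls and between 733 and 1164 CPM in Igf2 cKO libraries, the lowest being Igf2 cKO replicate 1. Of 6 endothelial markers, Cldn5 (-0.61 ± 0.18, adjusted p = 0.281) and Kdr (-0.60 ± 0.26, adjusted p = 0.493) had an unadjusted p under 0.05. Both also had every control above every Igf2 cKO library. The shares of all genes lower on these measures were 4.82% and 7.67%. The other endothelial markers had overlapping groups, with Pecam1 and Cdh5 at -0.10, Tek at 0.004 and Emcn at 0.22. Fibroblast markers, with 4 of 4 below 0, overlapped, and so did adipocyte markers, with 4 of 4 above 0. Muscle fibre markers summed to between 103985 and 124556 CPM in controls and between 79759 and 102106 CPM in Igf2 cKO libraries. Singly, 5 of the 6 lay below 0, Mb stood at 0.29 ± 0.41, and 0 had an unadjusted p under 0.05. No marker was at 0 in all 6 libraries, though Ly6g, a defining neutrophil marker, was at 0 in 5 of them. The erythroid, T and NK cell and muscle fibre sums thus lay lower in Igf2 cKO libraries, as most interferon-stimulated genes did. So did the single markers Cldn5 and Kdr, though the endothelial sum overlapped. Of the lists whose sums lay lower, only the erythroid one had every tested marker below 0. The part of these cells in the result was not tested.

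**Figure D4:**
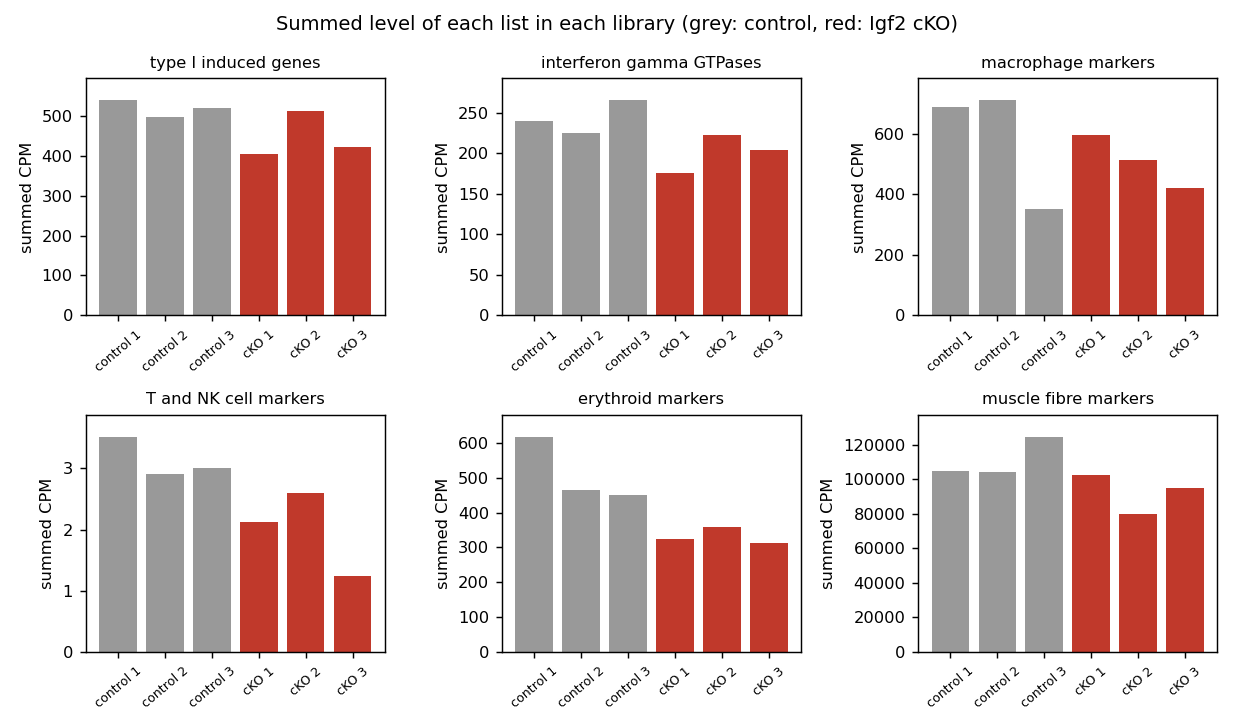
Summed CPM of the type I induced genes, the interferon gamma GTPases and 4 marker lists in each library, with controls in grey and Igf2 cKO in red and every axis starting at 0. Erythroid, T and NK cell and muscle fibre sums separate the groups; for the type I induced genes Igf2 cKO replicate 2, at 512 CPM, lies within the control range of 496 to 540 CPM.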

How the data were processed

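RNA of 3 control and 3 Igf2 cKO muscle samples was sequenced on an Illumina NovaSeq by a commercial service, per the labels' protocols. Aligner, counting tool, strand setting and genome build were not given in the sources used here. The deposited table holds raw counts and FPKM per gene and library, per the file headers. It also holds the authors' log2 fold changes and adjusted p-values for single pairs of libraries, by a method not stated there. There were 6 further per-sample columns that match no sample title, and these were left out. All 37 members had the same coordinates in GENCODE M21 (GRCm38).

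Counts were tested with edgeR 4.0.16 (quasi-likelihood F test, TMM factors, filterByExpr, Benjamini-Hochberg over 14867 genes) in R 4.3.3, with genotype as the single term. Standard errors were derived from the F statistic. CPM are counts scaled by TMM library sizes, and levels were compared between genes by the authors' FPKM only. The fit was tested on simulated counts. Alternatives were other size factors, other filters, DESeq2 1.42.0, limma-voom (limma 3.58.1), other call thresholds, the replicate number as a block, and leaving out each library. The same settings for Socs1, and DESeq2 and limma-voom calls for the other lists, were added after the data were seen.

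Members and gene lists were chosen with earlier results of these data known, so lists are described by counts and medians with no set test. Library values are given for members with an unadjusted p under 0.05 and, in each role, for the most abundant member per length and the one furthest from 0. Always given are Socs1, the receptors and the ligands, and of each pathway list the genes called or those with the smallest p. Promoters follow the smallest p and the highest FPKM of each group; those of Ifit1, Isg15 and Igtp were added after values were seen. A further gene the rule names is not reported here.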

Additional observations from a re-analysis of the deposited data

How the results depend on the processing

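The 37 genes gave 0 calls in either direction under every alternative run, the rule stated for the series (unadjusted p under 0.05, log2 fold change beyond 1 in size) included. The lowest adjusted p among them was 0.053 with no filter on low counts (Oasl2) and 0.0909 in DESeq2. The threshold of 0.1 was applied to the main edgeR fit only. Leaving out 1 library at a time put their median log2 fold change at -0.40 to -0.23. The number with an unadjusted p under 0.05 lay between 10 and 17 over those fits. Over all genes, calls numbered 37, and 214 with DESeq2, 282 with no filter on low counts, 62 at an adjusted p under 0.1 and 235 by the rule of the series. With 1 library left out they ran from 8 (without control replicate 1) to 68 (without Igf2 cKO replicate 2), with 15, 13 and 17 without control replicates 2 and 3 and Igf2 cKO replicate 3. Signs turned for 9 uncalled genes when 1 library was left out: the log2 fold change of Mx1 ran from -1.22 to 0.10, that of Oas2 from -0.024 to 0.38, that of Rsad2 from -0.21 to 0.44, that of Bst2 from -0.089 to 0.13, that of Xaf1 from -0.23 to 0.048, that of Parp9 from -0.18 to 0.023, that of Trim25 from -0.31 to 0.091, that of Cmpk2 from -0.34 to 0.073 and that of Gbp2 from -0.33 to 0.085. The cause was not tested. No scaling moved the median of all genes by over 0.1.

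With the replicate number as a block, 35 genes were called over all genes and 0 of the 37, 13 of which had an unadjusted p under 0.05, with a median of -0.33. Deviations of same-numbered libraries correlated at 0.16, 0.06 and -0.04, and those of differently numbered libraries at -0.18 to 0.12. With 3 libraries a group, these values cannot exclude pairing. The labels do not say that the numbers mark litters or batches, so they were not taken as pairs. Oas3, Mx1 and Mx2 rest on at most 38 counts a library.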
